A study of Mus musculus with 9 samples.

Results

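The 39 genes described here encode proteins of double-strand break repair and of the Fanconi anemia pathway. They were taken as a list of names from the 24318 genes listed in the deposited RNA-seq tables, and all 39 were found. A broken DNA end can be joined directly by nonhomologous end joining, in which the Ku heterodimer and DNA-PKcs hold the ends and ligase IV seals them, or it can be cut back by the MRN complex and nucleases and repaired by homologous recombination on the sister chromatid with the BRCA proteins and their partners. The kinases ATM and ATR signal the break to the cell cycle machinery, and the Fanconi core complex ubiquitylates FANCI and FANCD2 where a replication fork meets an interstrand crosslink. R-loops, three-stranded structures of RNA-DNA hybrid and displaced DNA, are a known source of such breaks, and both proteins depleted in this study, the RNA exosome subunit EXOSC3 and the putative RNA helicase DDX1, have been linked to R-loops.

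RNA was measured in N2A cells, a single mouse neuroblastoma line, after lipid transfection with a scramble control siRNA (genotype label WT), an EXOSC3 siRNA (EXOSC3 knockdown) or a DDX1 siRNA (DDX1 knockdown). All 3 groups carry the treatment label Untreated, and each holds 3 libraries grown on separate plates of this line. The EXOSC3 siRNA used for sequencing and the time after transfection are not given in the sources used here. Values are FPKM (sequenced fragments scaled to gene length and library size) in 2 tables, each with 1 knockdown and the same 3 scramble libraries. Each knockdown was compared with scramble inside its own table by limma on log2(FPKM + 1), so that a log2 fold change understates the change of a weakly expressed gene. An adjusted p under 0.05 is called past the threshold. Because the comparisons share the scramble libraries, a gene past the threshold in each is not an independent repeat.

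The targeted transcripts matched the labels. Exosc3 stood at 45.8, 43.8 and 42.7 FPKM in scramble and at 6.84, 7.68 and 6.01 FPKM in siEXOSC3 (log2 fold change -2.53, SE 0.0881, limma adjusted p = 1.11e-05). Ddx1 stood at 130, 126 and 119 FPKM in scramble and at 28.0, 28.7 and 34.8 FPKM in siDDX1 (log2 fold change -2.01, SE 0.0873, limma adjusted p = 9.53e-05). Relative to scramble replicate 1, the depth of the other libraries lay between 0.824 and 1.21, the highest in siDDX1 replicate 3, and absolute depth is unknown. All 9 neuroblastoma markers examined (Phox2a, Hand2 and others) were expressed. No fibroblast or macrophage marker reached the tested level: Col1a2 and Lum were listed at 0, Ptprc was at 0 in scramble and siEXOSC3 and at most 0.00891 FPKM in a siDDX1 library, and the summed level stayed between 0.839 and 1.31 FPKM for the fibroblast list and between 0.357 and 1.88 FPKM for the macrophage list. Of the glial markers, Aqp4 was listed at 0 and only Mbp was tested.

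With all libraries, more of the repair genes fell than rose after either knockdown, and in siDDX1 this count rested on few calls that changed with the removal of 1 library. In siEXOSC3 cells, 9 of the 38 genes tested fell (Fancb, Fancm, Brca1, Nbn, Atm, Chek1, Chek2, Rif1 and Lig4), 2 rose (Rad51c and Xrcc6) and 27 did not pass the threshold. These are 23.7% decreased and 5.26% increased, where 15.7% and 16.7% of all 11242 genes tested were decreased and increased. In siDDX1 cells, 4 of 38 fell (Fancb, Brca1, Atm and Lig4), 1 rose (Xrcc6) and 33 did not pass, that is 10.5% decreased and 2.63% increased beside 5.03% and 5.61% of all 11104 genes tested. Leaving out 1 library gave 4 to 15 falls in siEXOSC3. In siDDX1 it gave 0 limma calls without scramble replicate 1, 2 or 3, where 3, 2 and 2 genes were higher and 8, 11 and 8 lower at an unadjusted p under 0.05. Over all genes 1232, 1419 and 1215 were higher and 1104, 1350 and 1224 lower at that unadjusted limma p. Leaving out siDDX1 replicate 1 or 2 gave 1 call, and leaving out siDDX1 replicate 3 gave 17 falls. The median log2 fold change of the 38 genes was -0.17 in siEXOSC3 and -0.05 in siDDX1, where the medians over all genes tested were -0.014 and -0.00059. Without siDDX1 replicate 3 the siDDX1 median of these genes was -0.17 as well. In bulk RNA, fewer cells in the cycle phase that expresses a gene and less RNA per cell cannot be told apart. Fancf, at 0.894 ± 0.180 FPKM (SD, n = 3) in scramble, lay under the minimum mean of 1 FPKM and was not tested.

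The same libraries were also counted without p-values, which is not separate support. In siEXOSC3, 14 of the 38 genes had all 3 values below all 3 scramble values and 6 had all 3 above, which is 36.8% and 15.8% where all genes tested gave 25.9% and 23.8%. In siDDX1, 9 lay wholly below and 5 wholly above, which is 23.7% and 13.2% where all genes tested gave 17.8% and 17%. The siDDX1 shares thus lay nearer to those of all genes. In siEXOSC3, 3 checkpoint kinase genes fell while Atr lay above scramble without passing, and among the end joining genes Xrcc6 rose while Lig4 fell.

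**Figure D1:**
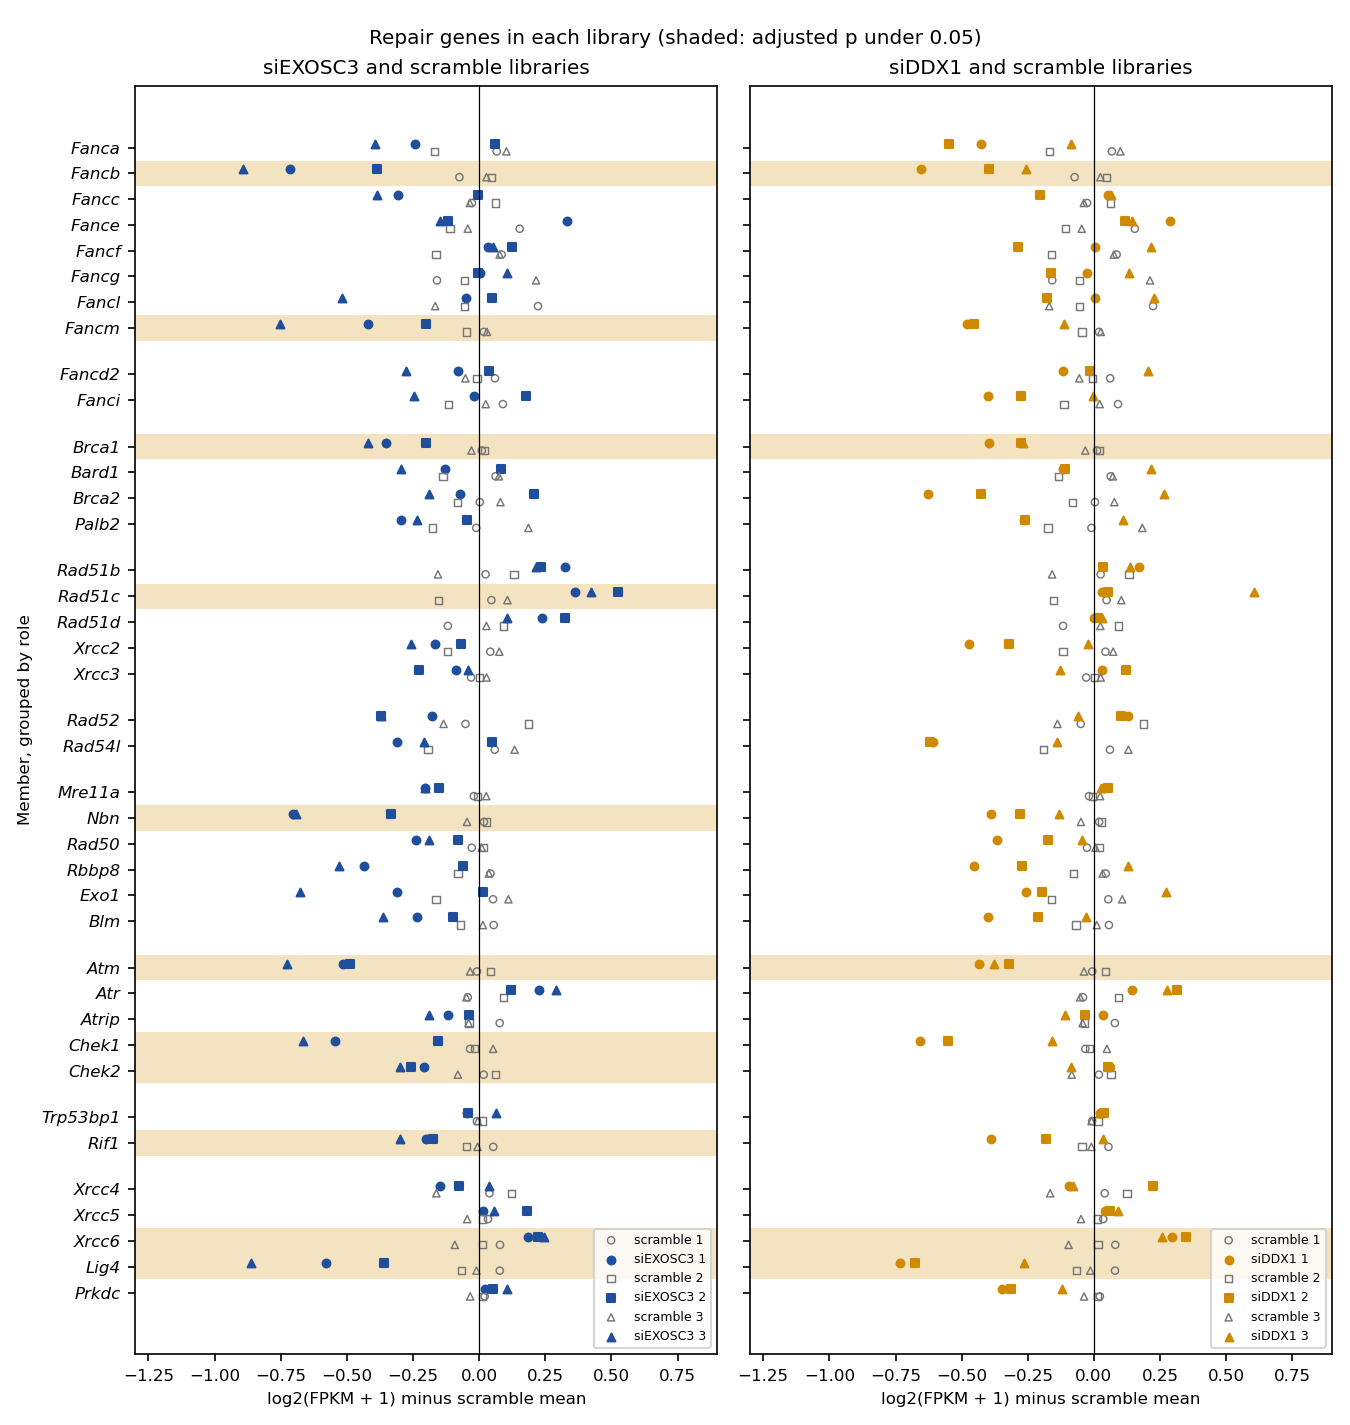
Each of the 39 genes (vertical axis, grouped by role) in each library, as log2(FPKM + 1) minus the mean of the 3 scramble libraries of the same table (horizontal axis, log2 units); filled symbols are knockdown libraries, open symbols scramble libraries, and the symbol's shape gives the replicate. Shaded genes passed the threshold, 11 in siEXOSC3 and 5 in siDDX1; the filled symbols of Atm and Lig4 lie left of the open ones on both sides, and those of Xrcc6 to the right.

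The promoters of Fancb, Brca1, Atm, Xrcc6 and Lig4 are shown because these are the genes past the threshold in each comparison. RefSeq (GRCm38.p6) gave a promoter for 30 of the 39 genes, from 250 bases before to 50 bases after each start. Capitals mark CCAAT on either strand and the letters of an E2F element (TTCGCGC or TTGGCGC, either strand), sequences known from promoters of cell cycle and DNA replication genes.
Fancb, chrX:164980342-164980641, plus strand: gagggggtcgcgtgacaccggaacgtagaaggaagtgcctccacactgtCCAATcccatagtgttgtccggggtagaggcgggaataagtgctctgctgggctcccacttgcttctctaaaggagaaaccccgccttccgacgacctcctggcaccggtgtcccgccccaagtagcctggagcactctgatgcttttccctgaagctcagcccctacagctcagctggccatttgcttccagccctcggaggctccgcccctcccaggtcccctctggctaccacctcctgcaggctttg
Brca1, chr11:101551906-101552205, minus strand: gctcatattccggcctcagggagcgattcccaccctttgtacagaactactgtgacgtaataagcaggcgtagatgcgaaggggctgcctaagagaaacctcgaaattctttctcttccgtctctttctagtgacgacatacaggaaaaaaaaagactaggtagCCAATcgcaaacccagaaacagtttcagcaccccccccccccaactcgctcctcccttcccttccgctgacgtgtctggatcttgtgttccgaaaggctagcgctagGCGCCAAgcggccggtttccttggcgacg
Atm, chr9:53536622-53536921, minus strand: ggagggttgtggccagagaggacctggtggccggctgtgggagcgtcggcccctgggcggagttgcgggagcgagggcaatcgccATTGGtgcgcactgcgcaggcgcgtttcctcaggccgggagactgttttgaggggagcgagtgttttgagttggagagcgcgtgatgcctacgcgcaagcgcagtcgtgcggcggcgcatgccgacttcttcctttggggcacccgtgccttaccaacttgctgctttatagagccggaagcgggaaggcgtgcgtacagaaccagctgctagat
Xrcc6, chr15:82016119-82016418, plus strand: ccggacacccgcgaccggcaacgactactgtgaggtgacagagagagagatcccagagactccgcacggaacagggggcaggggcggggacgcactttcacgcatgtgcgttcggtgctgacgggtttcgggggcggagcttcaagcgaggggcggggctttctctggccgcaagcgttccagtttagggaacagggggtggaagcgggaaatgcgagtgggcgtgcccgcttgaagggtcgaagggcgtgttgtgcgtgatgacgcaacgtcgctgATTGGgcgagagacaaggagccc
Lig4 first start, chr8:9977631-9977930, minus strand: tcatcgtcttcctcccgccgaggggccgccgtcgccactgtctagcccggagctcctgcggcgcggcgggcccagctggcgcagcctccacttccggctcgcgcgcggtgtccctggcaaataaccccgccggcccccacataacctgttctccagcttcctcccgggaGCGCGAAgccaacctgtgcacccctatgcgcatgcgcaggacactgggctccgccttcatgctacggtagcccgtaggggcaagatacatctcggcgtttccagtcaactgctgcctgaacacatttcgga
Lig4 second start, chr8:9976262-9976561, minus strand: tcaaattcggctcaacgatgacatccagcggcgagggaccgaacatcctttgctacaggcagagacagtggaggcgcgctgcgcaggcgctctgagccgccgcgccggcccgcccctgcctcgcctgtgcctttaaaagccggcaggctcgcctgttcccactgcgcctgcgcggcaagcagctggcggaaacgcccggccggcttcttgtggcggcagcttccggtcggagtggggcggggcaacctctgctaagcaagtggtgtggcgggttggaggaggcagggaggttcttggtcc
A CCAAT lay in the windows of Fancb at -201 and Brca1 at -86 (counted from 0 at the start), and its reverse in those of Atm at -165 and Xrcc6 at 27. The E2F letters lay in those of Brca1 at 21 and Lig4 at -81. CCAAT was found in 58.8% of the 34 member promoters and 37.4% of all 32851 promoters, the E2F letters in 17.6% and 3.89%, and TTTGAA, the core of the cell cycle homology region, in 5.88% and 17.9%. All promoters here are those of 27025 genes, not only of the genes tested. The 6 member windows with E2F letters include both starts of Rad51c. A match is a description of these letters, not a bound site.

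The remaining windows with E2F letters belonged to Fancm, which fell in siEXOSC3, to both starts of Rad51c, which rose there, and to Fancf, which was not tested. Their stretches are shown because they share the letters while the genes moved in opposite directions, and in Fancf the letters run into a CCAAT.
Fancf, chr7:51862367-51862403, minus strand: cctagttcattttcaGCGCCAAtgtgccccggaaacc
Fancm, chr12:65075481-65075517, plus strand: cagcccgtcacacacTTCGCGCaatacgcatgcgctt
Rad51c, chr11:87404473-87404509, minus strand: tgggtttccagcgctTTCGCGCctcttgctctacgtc
Rad51c, chr11:87405001-87405037, minus strand: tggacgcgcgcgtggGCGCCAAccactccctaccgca
Of the promoters of members past the threshold in siEXOSC3, 3 of 8 of decreased genes and 2 of 3 of increased genes held the E2F letters, and 0 of 22 of the genes that did not pass. By the siDDX1 calls it was 2 of 5 of decreased genes, 0 of 1 of increased genes and 3 of 27 of the genes that did not pass. The second Lig4 start held none.

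Of the checkpoint kinase genes, Atm, Chek1 and Chek2 fell in siEXOSC3 and Atm fell in siDDX1. ATM, the kinase activated by double-strand breaks, is encoded by Atm (chr9:53247254-53344845, minus strand, in NCBIM37, the mm9 assembly, as for the gene positions below), which was listed at 13.5, 14.1 and 13.3 FPKM in scramble and at 9.23, 9.42 and 7.85 FPKM in siEXOSC3. Its siDDX1 libraries read 9.74, 10.6 and 10.2 FPKM against 13.4, 13.9 and 13.1 FPKM for scramble in that table. All 6 knockdown libraries lay below every scramble library. Relative to scramble, Atm was at 64.8% ± 6.31 (SD, n = 3) in siEXOSC3 (log2 fold change -0.58, SE 0.0837, limma adjusted p = 0.00291). In siDDX1 it was at 75.3% ± 3.26 (SD, n = 3; log2 fold change -0.38, SE 0.0676, limma adjusted p = 0.0149). The siEXOSC3 call held without any 1 library, while the siDDX1 call was lost without scramble replicate 1, 2 or 3 (limma adjusted p between 0.0585 and 0.0793).

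Atr encodes the kinase that answers single-stranded DNA at stalled forks, and it lay on the other side of scramble. Its scramble libraries read 14.2, 15.6 and 14.1 FPKM, and its siEXOSC3 libraries 17.3, 16.0 and 18.1 FPKM. The siDDX1 libraries read 16.1, 18.2 and 17.8 FPKM against 14, 15.5 and 13.9 FPKM. The groups did not overlap in either table, yet neither difference passed (log2 fold change 0.21, limma adjusted p = 0.0629 in siEXOSC3, and 0.24, limma adjusted p = 0.0739 in siDDX1). Without siEXOSC3 replicate 2 the first passed (limma adjusted p = 0.0263). Atrip, the partner of ATR, stood at 4.91 ± 0.279 FPKM (SD, n = 3) in scramble and overlapped scramble in each knockdown. Atrip shares 1314 exonic bases with Trex1 on the same strand, and Atr shares 187 and 151 with transcripts on the opposite strand, so reads from those stretches cannot be assigned to 1 gene.

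The ratio of Atr to Atm within a library needs no scaling between tables. It was 1.05, 1.11 and 1.06 in scramble, 1.87, 1.69 and 2.31 in siEXOSC3, and 1.65, 1.72 and 1.75 in siDDX1. Every knockdown library lay above every scramble library. This pair and those below were chosen after the values had been seen, so the ratios carry no test.

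Chek1 (chr9:36516067-36534650, minus strand), encoding the effector kinase that arrests the cycle downstream of ATR, read 15.7, 15.8 and 16.7 FPKM in scramble and 10.7, 14.3 and 9.76 FPKM in siEXOSC3. After DDX1 depletion it read 9.73, 10.5 and 14.1 FPKM against 15.5, 15.7 and 16.5 FPKM. It lay wholly below scramble in each table, and 1 library of each knockdown was close to scramble. The log2 fold change was -0.46 (SE 0.124, limma adjusted p = 0.0248) in siEXOSC3, and -0.46 (SE 0.122, limma adjusted p = 0.0507) in siDDX1, just outside the threshold. Without siEXOSC3 replicate 1 or any 1 scramble library the first was lost (limma adjusted p between 0.065 and 0.0882), and without siDDX1 replicate 3 the second passed (limma adjusted p = 0.000599).

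Chek2 (chr5:111269036-111303152, plus strand), whose kinase acts downstream of ATM, read 17.3, 17.9 and 16.1 FPKM in scramble and 14.6, 14.1 and 13.7 FPKM in siEXOSC3 (log2 fold change -0.26, SE 0.0701, limma adjusted p = 0.0258). siDDX1 cells gave 17.7, 17.6 and 15.9 FPKM against 17.1, 17.7 and 15.9 FPKM (log2 fold change 0.01, limma adjusted p = 0.945). Chek2 lay wholly below scramble in siEXOSC3 and overlapped it in siDDX1, and the difference between the knockdowns was not tested. The siEXOSC3 call was lost without siEXOSC3 replicate 1 or scramble replicate 1 or 2 (limma adjusted p between 0.0614 and 0.101).

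Among the end joining genes, the ligase fell and a Ku subunit rose. Lig4 (chr8:9970020-9977686, minus strand), encoding DNA ligase IV, read 13.0, 11.6 and 12.2 FPKM in scramble and 7.87, 9.33 and 6.29 FPKM in siEXOSC3. In siDDX1 it read 6.91, 7.21 and 9.94 FPKM against 12.9, 11.5 and 12 FPKM. No knockdown library reached the lowest scramble library. Lig4 was at 63.9% ± 12.4 (SD, n = 3) of the scramble mean in siEXOSC3 (log2 fold change -0.60, SE 0.123, limma adjusted p = 0.00931) and at 66.0% ± 13.8 (SD, n = 3) in siDDX1 (log2 fold change -0.56, SE 0.124, limma adjusted p = 0.029). The siEXOSC3 call held without any 1 library. The siDDX1 call was lost without siDDX1 replicate 1 or 2 or any scramble replicate (limma adjusted p between 0.0682 and 0.126).

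Xrcc6 (chr15:81818265-81870515, plus strand), encoding Ku70, had the highest FPKM of the 39 genes, at 208, 199 and 185 FPKM in scramble, 224, 230 and 234 FPKM in siEXOSC3, and 240, 249 and 233 FPKM in siDDX1, where scramble read 207, 197 and 183 FPKM. All 6 knockdown libraries lay above scramble. The rise was small, with a log2 fold change of 0.22 (SE 0.0678, limma adjusted p = 0.0397) in siEXOSC3 and 0.30 (SE 0.0682, limma adjusted p = 0.0303) in siDDX1. In siEXOSC3 the call held only without siEXOSC3 replicate 2 and was lost without any other library (limma adjusted p between 0.0587 and 0.126), and in siDDX1 it held only without siDDX1 replicate 3 (elsewhere limma adjusted p between 0.079 and 0.119). Xrcc6 shares 344 exonic bases with Pppde2 on the opposite strand, and because the library kit kept no strand, reads from that stretch cannot be told apart.

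Xrcc5, encoding Ku80, the partner of Ku70, stood at 27.9 ± 0.809 FPKM (SD, n = 3) in scramble and 29.7 ± 1.85 FPKM (SD, n = 3) in siEXOSC3. Xrcc4, encoding the scaffold of ligase IV, stood at 24.7 ± 2.55 and 23.5 ± 1.58 FPKM (SD, n = 3). Neither passed the threshold in either knockdown. The ratio of Xrcc4 to Lig4 was 1.95, 2.31 and 1.80 in scramble, 2.81, 2.5 and 4.01 in siEXOSC3, and 3.29, 3.97 and 2.32 in siDDX1, above every scramble library by a narrow margin in siDDX1 replicate 3. The ratio of Xrcc6 to Xrcc5 was between 6.84 and 7.28 in scramble and between 7.91 and 8.63 in siDDX1, while siEXOSC3 replicate 2, at 7.26, lay inside the scramble range.

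Prkdc, encoding DNA-PKcs, lay on opposite sides in the knockdowns. It read 8.25, 8.20 and 7.90 FPKM in scramble and 8.27, 8.45 and 8.80 FPKM in siEXOSC3 (log2 fold change 0.06, limma adjusted p = 0.532). The siDDX1 libraries read 6.10, 6.28 and 7.31 FPKM against 8.18, 8.13 and 7.81 FPKM (log2 fold change -0.26, limma adjusted p = 0.0828), and without siDDX1 replicate 3 this passed (limma adjusted p = 0.01). The siEXOSC3 values lay just above scramble and the siDDX1 values below it.

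**Figure D2:**
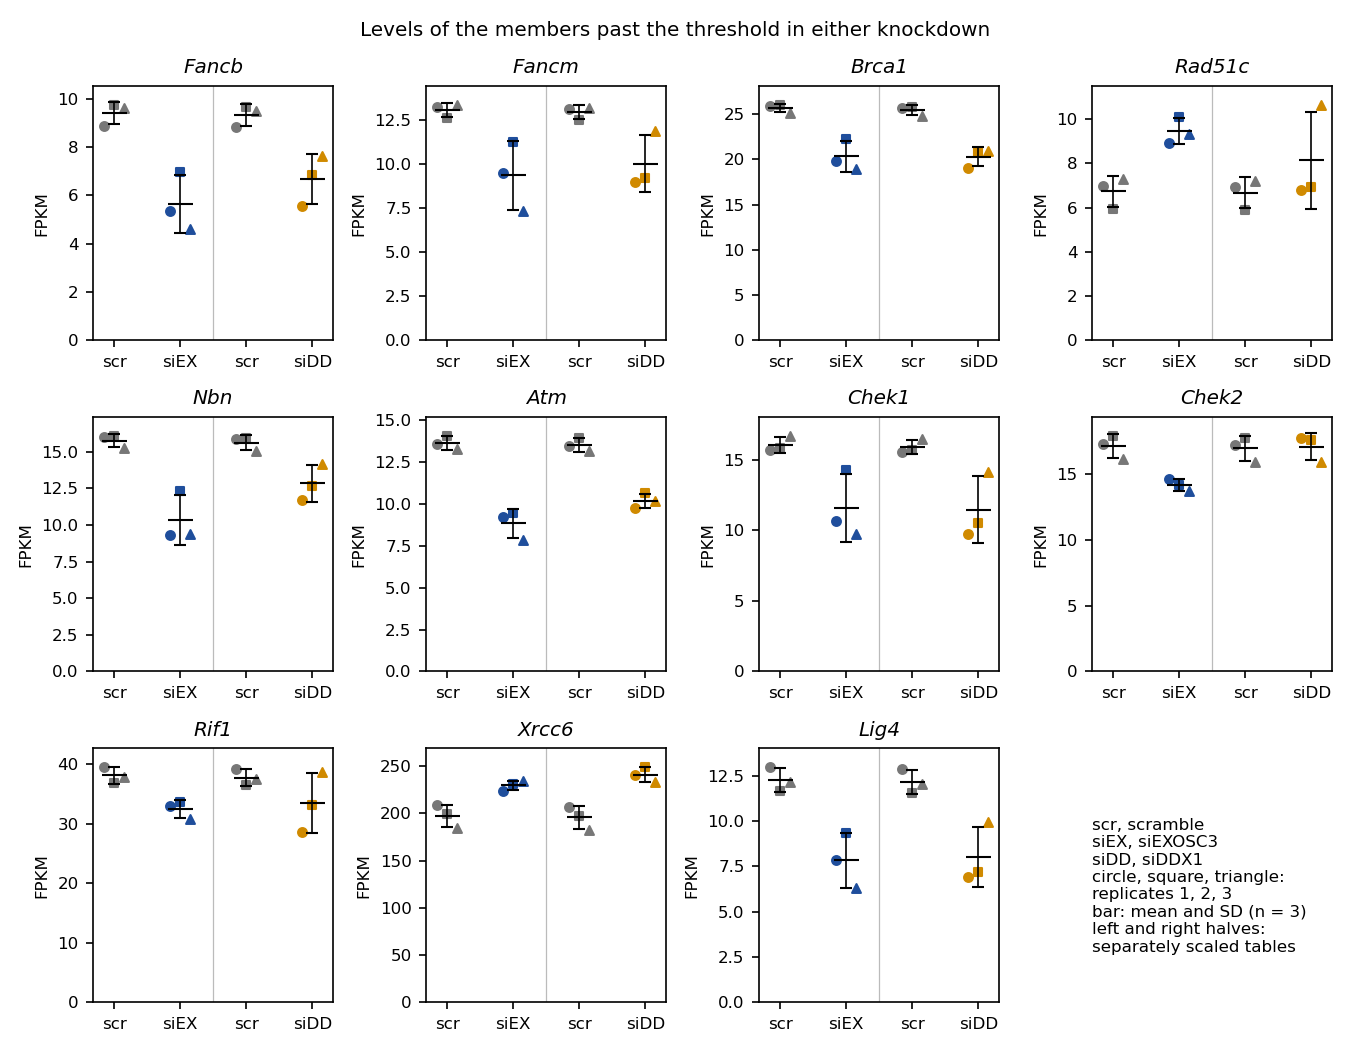
FPKM (linear vertical axis from 0) of the 11 genes past the threshold in at least 1 knockdown, with scramble (scr) beside siEXOSC3 (siEX) on the left and siDDX1 (siDD) on the right of each panel; circles, squares and triangles are replicates 1, 2 and 3, and bars are the mean and SD of 3 libraries. Atm, Brca1 and Lig4 lie below scramble in every knockdown library, and Chek2 does so in siEXOSC3 while it overlaps scramble in siDDX1.

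In the Fanconi core complex, 2 of 7 genes tested fell in siEXOSC3 and 1 in siDDX1, with none increased, where 15.7% and 5.03% of all genes tested fell. Fancb (chrX:161418524-161435204, plus strand), encoding a subunit of the catalytic module of the core complex, read 8.87, 9.74 and 9.60 FPKM in scramble and 5.34, 6.96 and 4.60 FPKM in siEXOSC3. After DDX1 depletion it read 5.56, 6.83 and 7.63 FPKM against 8.80, 9.66 and 9.49 FPKM. Scramble and knockdown libraries did not overlap, and the fall to 59.9% ± 12.8 (SD, n = 3) of scramble in siEXOSC3 was the deepest among the 38 genes by log2 fold change (-0.66, SE 0.126, limma adjusted p = 0.00704). In siDDX1 Fancb was at 71.6% ± 11.2 (SD, n = 3) of the scramble mean (log2 fold change -0.44, SE 0.108, limma adjusted p = 0.0405). The siEXOSC3 call held without any 1 library, and the siDDX1 call held only without siDDX1 replicate 3, with limma adjusted p between 0.0853 and 0.137 without siDDX1 replicate 1 or 2 or any scramble replicate.

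Fancm (chr12:66176593-66233045, plus strand), encoding the translocase that anchors the complex to DNA, read 13.3, 12.6 and 13.4 FPKM in scramble and 9.54, 11.2 and 7.35 FPKM in siEXOSC3 (log2 fold change -0.46, SE 0.129, limma adjusted p = 0.0277). siDDX1 cells gave 9.01, 9.20 and 11.9 FPKM against 13.2, 12.5 and 13.2 FPKM (log2 fold change -0.35, limma adjusted p = 0.0672). Each knockdown lay wholly below scramble, and only the first difference passed. Without siEXOSC3 replicate 1 or any 1 scramble library it was lost (limma adjusted p between 0.0641 and 0.0907), and without siDDX1 replicate 3 the siDDX1 difference passed (limma adjusted p = 0.00156).

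The other core genes were weakly expressed and did not pass. Scramble means were 5.05 FPKM for Fanca, 3.56 for Fancc, 5.61 for Fance and 2.83 for Fancg, all subunits that bridge or stabilize the complex, and 4.42 FPKM for Fancl, which encodes its ubiquitin ligase. All of them overlapped scramble in each knockdown. The SD in a knockdown ran from 0.167 FPKM, for Fancg around a siEXOSC3 mean of 2.90 FPKM, to 1.32 FPKM, for Fance around a siEXOSC3 mean of 5.76 FPKM. Fanca, Fancc and Fancl share 652, 185 and 462 exonic bases with genes on the opposite strand. Without siEXOSC3 replicate 2 Fancc passed in siEXOSC3 (limma adjusted p = 0.0237), and without siDDX1 replicate 3 Fanca passed in siDDX1 (limma adjusted p = 0.00863).

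The substrate pair FANCI and FANCD2 did not pass either. Fancd2 read 13.1, 12.4 and 12 FPKM in scramble and 11.8, 12.8 and 10.2 FPKM in siEXOSC3 (log2 fold change -0.11, limma adjusted p = 0.391). In siDDX1 it read 11.4, 12.2 and 14.4 FPKM against 13.0, 12.3 and 11.9 FPKM (log2 fold change 0.02, limma adjusted p = 0.887). Knockdown and scramble libraries overlapped in each table. Fanci, at 4.40 ± 0.386 FPKM (SD, n = 3) in scramble, overlapped as well, and shares 856 exonic bases with Polg on the opposite strand.

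Among the BRCA proteins only Brca1 passed, in each comparison. Brca1 (chr11:101350078-101413269, minus strand), encoding the ubiquitin ligase that promotes resection, read 25.9, 26.0 and 25.1 FPKM in scramble and 19.9, 22.2 and 18.9 FPKM in siEXOSC3. The siDDX1 libraries read 19.1, 20.8 and 20.9 FPKM against 25.6, 25.8 and 24.8 FPKM. The highest knockdown library stayed below the lowest scramble library in each table. The log2 fold change was -0.32 (SE 0.0746, limma adjusted p = 0.0139) in siEXOSC3 and -0.31 (SE 0.0629, limma adjusted p = 0.0211) in siDDX1. In siEXOSC3 the call was lost without siEXOSC3 replicate 1 or scramble replicate 1 or 2 (limma adjusted p between 0.0506 and 0.0609), and in siDDX1 it held only without siDDX1 replicate 3 (elsewhere limma adjusted p between 0.062 and 0.102).

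Its partners did not pass. Bard1, which forms a heterodimer with BRCA1, stood at 9.65 ± 0.854 FPKM (SD, n = 3) in scramble and 8.88 ± 1.30 FPKM (SD, n = 3) in siEXOSC3. The ratio of Bard1 to Brca1 was between 0.333 and 0.405 in scramble, between 0.405 and 0.462 in siEXOSC3 and between 0.421 and 0.536 in siDDX1, so that it lay above scramble in siDDX1 and overlapped it in siEXOSC3. Brca2, whose protein acts with PALB2 in homologous recombination, read 7.56, 7.07 and 8.04 FPKM in scramble, 7.13, 8.86 and 6.49 FPKM in siEXOSC3 (limma adjusted p = 0.911), and 4.48, 5.31 and 9.19 FPKM in siDDX1 (limma adjusted p = 0.415). The siDDX1 libraries of Brca2 were split, with replicates 1 and 2 below scramble and replicate 3 above it, and without replicate 3 the fall passed (log2 fold change -0.53, limma adjusted p = 0.00328). Palb2, which bridges BRCA1 and BRCA2, read 4.10, 3.55 and 4.85 FPKM in scramble, 3.19, 3.97 and 3.36 FPKM in siEXOSC3, and 3.25, 3.26 and 4.5 FPKM in siDDX1. It overlapped scramble in each table (limma adjusted p = 0.238 and 0.526).

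Rad51b, Rad51c, Rad51d, Xrcc2 and Xrcc3, whose proteins form complexes that assist homologous recombination, were a role whose median lay above scramble in siEXOSC3, at a log2 fold change of 0.22 over 5 genes. Rad51c (chr11:87190147-87218456, minus strand), a subunit of each of these complexes, read 6.96, 5.93 and 7.30 FPKM in scramble and 8.91, 10.1 and 9.33 FPKM in siEXOSC3. It was at 140% ± 8.78 (SD, n = 3) of the scramble mean (log2 fold change 0.44, SE 0.0926, limma adjusted p = 0.0104), a call that held without any 1 library. After DDX1 depletion it read 6.81, 6.93 and 10.6 FPKM against 6.90, 5.88 and 7.21 FPKM (log2 fold change 0.23, limma adjusted p = 0.355). All siEXOSC3 libraries lay above scramble, while in siDDX1 only replicate 3 did.

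Rad51b and Rad51d also lay wholly above scramble in siEXOSC3 without passing. Rad51b went from 2.65 ± 0.362 to 3.35 ± 0.179 FPKM (SD, n = 3, limma adjusted p = 0.0884), and Rad51d from 3.85 ± 0.355 to 4.66 ± 0.430 FPKM (SD, n = 3, limma adjusted p = 0.114). Xrcc2, at 7.43 FPKM in scramble, and Xrcc3, at 1.59 FPKM, had negative log2 fold changes in siEXOSC3 that did not pass. Xrcc2 passed in siDDX1 without replicate 3 of that group (limma adjusted p = 0.0108).

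Of the strand annealing factor Rad52 and the recombination motor gene Rad54l, neither passed. Rad52 went from 10.9 ± 1.40 to 8.57 ± 0.744 FPKM (SD, n = 3) in siEXOSC3 with no overlap (limma adjusted p = 0.0505), just outside the threshold, and stood at 11.2 ± 0.859 FPKM in siDDX1. Rad54l went from 6.20 ± 0.820 to 4.29 ± 1.05 FPKM (SD, n = 3) in siDDX1 (log2 fold change -0.46, limma adjusted p = 0.0832) and passed there without siDDX1 replicate 3 (limma adjusted p = 0.00314). It shares 1184 exonic bases with Lrrc41 on the opposite strand.

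In the MRN complex, which binds and trims broken ends, all 3 subunit genes lay below scramble in siEXOSC3, and 1 passed the threshold. Nbn (chr4:15885072-15919736, plus strand), encoding the subunit that recruits ATM, read 16.0, 16.1 and 15.2 FPKM in scramble and 9.28, 12.3 and 9.38 FPKM in siEXOSC3. Nbn was at 65.4% ± 10.8 (SD, n = 3) of the scramble mean (log2 fold change -0.58, SE 0.106, limma adjusted p = 0.00622), and the call held without any 1 library. siDDX1 cells gave 11.7, 12.7 and 14.2 FPKM against 15.8, 16.0 and 15.1 FPKM (log2 fold change -0.27, limma adjusted p = 0.0693), and it passed without siDDX1 replicate 3 (limma adjusted p = 0.00676). Nbn lay below every scramble library in all 6 knockdown libraries.

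Rad50, the ATPase of the complex, had among the highest FPKM of the 39 genes and fell short of the threshold. It went from 44.3 ± 0.764 to 39.3 ± 2.26 FPKM (SD, n = 3) in siEXOSC3 (log2 fold change -0.17, limma adjusted p = 0.0778). Mre11a, its nuclease, read 14.2, 14.4 and 14.7 FPKM in scramble and 12.4, 12.9 and 12.4 FPKM in siEXOSC3 (log2 fold change -0.19, limma adjusted p = 0.0538). In siDDX1 it read 14.7, 14.9 and 14.6 FPKM against 14.1, 14.3 and 14.6 FPKM (log2 fold change 0.04, limma adjusted p = 0.709). Mre11a thus lay wholly below scramble in siEXOSC3 and just above it in siDDX1. Without siEXOSC3 replicate 2 both Rad50 and Mre11a passed (limma adjusted p = 0.0269 and 0.0445). The ratio of Rad50 to Nbn was between 2.72 and 2.93 in scramble, between 3.4 and 4.13 in siEXOSC3 and between 2.89 and 3.06 in siDDX1, where it overlapped scramble.

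The resection genes did not pass with all libraries. Rbbp8, encoding CtIP, which starts resection, went from 24.1 ± 1.19 to 19.0 ± 3.56 FPKM (SD, n = 3) in siEXOSC3 (limma adjusted p = 0.0553). Exo1, a long-range exonuclease gene, went from 11.8 ± 1.25 to 9.35 ± 2.45 FPKM (SD, n = 3, limma adjusted p = 0.154). Blm, encoding the helicase that acts with it, went from 19.8 ± 0.907 to 16.7 ± 1.64 FPKM (SD, n = 3, limma adjusted p = 0.0626). In each of them siEXOSC3 replicate 2 was the library nearest to or inside the scramble range, and without it all of them passed (limma adjusted p = 0.00177, 0.0132 and 0.0145). Rbbp8 and Blm passed in siDDX1 without its replicate 3 (limma adjusted p = 0.00661 and 0.015).

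Of the factors that protect ends from resection, Rif1 (chr2:51928357-51977903, plus strand) read 39.6, 36.9 and 38.0 FPKM in scramble and 33.0, 33.7 and 30.8 FPKM in siEXOSC3 (log2 fold change -0.22, SE 0.0656, limma adjusted p = 0.0317). The siDDX1 libraries read 28.6, 33.2 and 38.7 FPKM against 39.3, 36.6 and 37.5 FPKM (log2 fold change -0.18, limma adjusted p = 0.274). The siEXOSC3 libraries were close together below scramble, while the siDDX1 libraries spread from below scramble into its range. The siEXOSC3 call held only without siEXOSC3 replicate 2 (elsewhere limma adjusted p between 0.0536 and 0.135), and without siDDX1 replicate 3 the siDDX1 difference passed (limma adjusted p = 0.0168).

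Trp53bp1, encoding 53BP1, the chromatin reader that recruits RIF1, stayed near scramble. It read 17.4, 17.7 and 17.4 FPKM in scramble and 16.9, 17.0 and 18.3 FPKM in siEXOSC3 (log2 fold change -0.01, SE 0.0652, limma adjusted p = 0.928). After DDX1 depletion it read 17.6, 17.8 and 17.6 FPKM against 17.2, 17.5 and 17.2 FPKM (log2 fold change 0.03, SE 0.0574, limma adjusted p = 0.79). These differences are smaller than their standard errors. Trp53bp1 shares 2130 exonic bases with Tubgcp4 on the opposite strand.

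**Figure D3:**
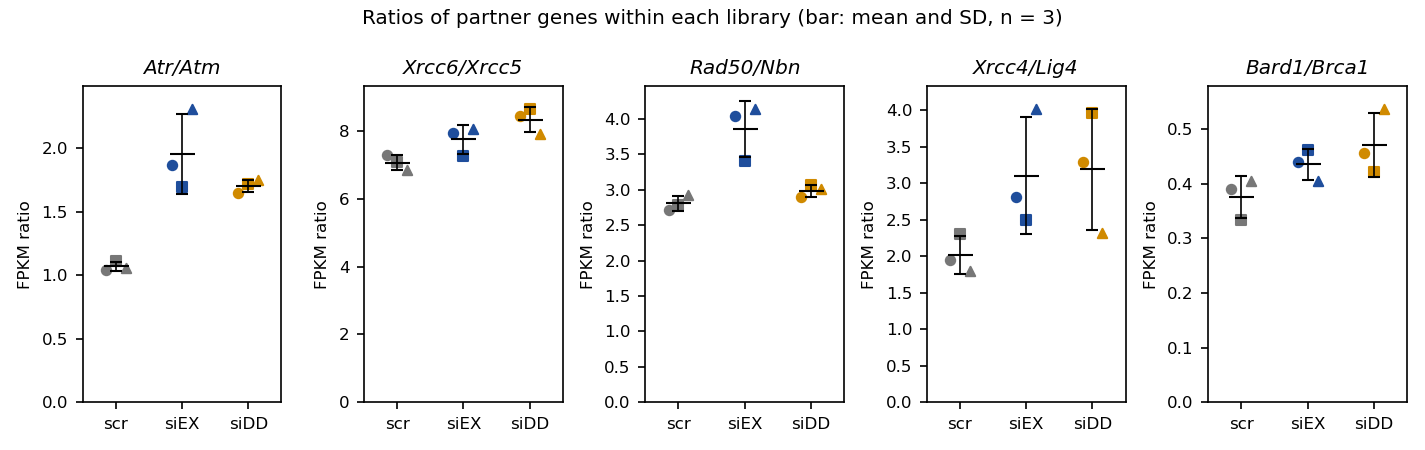
FPKM of 1 gene divided by that of its partner within each library (linear vertical axis from 0), in scramble (scr), siEXOSC3 (siEX) and siDDX1 (siDD); circles, squares and triangles are replicates 1, 2 and 3, and bars are the mean and SD of 3 libraries. The ratio of Atr to Atm stays between 1.05 and 1.11 in scramble and between 1.65 and 2.31 in the knockdowns, while the ratio of Rad50 to Nbn lies between 3.4 and 4.13 in siEXOSC3, above every scramble library, and overlaps scramble in siDDX1.

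The removal of 1 library changed which genes passed. Without siDDX1 replicate 3, the deepest library, Fanca, Fancm, Fanci, Brca2, Xrcc2, Rad54l, Nbn, Rad50, Rbbp8, Blm, Chek1, Rif1 and Prkdc joined the 4 that fell with all libraries. Over all genes, 1818 were increased and 1706 decreased without that replicate, beside 623 and 559 with it. The 1 gene that passed without siDDX1 replicate 1 or 2 was Atm. In siEXOSC3 the counts ran from 4 falls without siEXOSC3 replicate 1 or scramble replicate 1 or 2 to 15 without siEXOSC3 replicate 2, and Fancb, Rad51c, Nbn, Atm and Lig4 passed under every removal of 1 library. Without the filter on low FPKM, Fancm and Chek1 in siEXOSC3 (limma adjusted p = 0.0674 and 0.0603) and Fancb and Lig4 in siDDX1 (limma adjusted p = 0.0869 and 0.0715) no longer passed, and without the intensity trend Xrcc6 in siEXOSC3 did not (limma adjusted p = 0.0555). With a pseudocount of 0.1, Rad52 passed in siEXOSC3 (limma adjusted p = 0.0497).

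The libraries in which the repair genes were least changed were also those in which S phase genes were least changed. The median deviation of the 38 genes from scramble was -0.17, -0.04 and -0.25 (log2) in siEXOSC3 replicates 1, 2 and 3, and -0.19, -0.18 and 0.01 in the siDDX1 replicates. For 19 S phase genes (Mcm2 to Mcm7, Pcna, Ccne1 and others that are expressed for DNA replication) it was -0.29, -0.07 and -0.44, and -0.27, -0.23 and -0.07. For 15 G2 and M phase genes it was -0.44, -0.31 and -0.62 in siEXOSC3, and -0.27, -0.08 and -0.07 in siDDX1. Many repair genes are themselves expressed mostly in S phase and G2, and the part of the cell cycle in these differences was not tested.

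**Figure D4:**
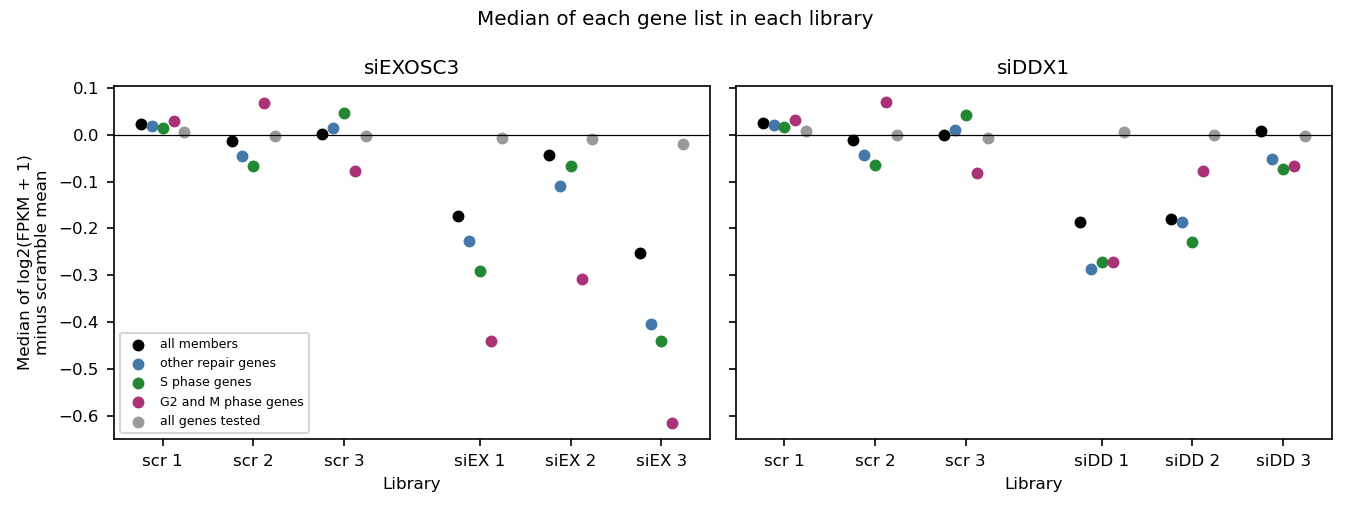
Median over each gene list of log2(FPKM + 1) minus the scramble mean (vertical axis, log2 units) in each library (horizontal axis; scr, siEX and siDD are scramble, siEXOSC3 and siDDX1 with the replicate number). In siEXOSC3 replicate 2 and siDDX1 replicate 3 the medians of the repair and S phase genes lie nearest to 0, while the median over all genes stays near 0 in every library.

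Genes of both cell cycle lists fell, and the difference between the knockdowns was not tested. Of the S phase genes 9 fell and 0 rose in siEXOSC3 (by limma, 11 and 0 at an unadjusted p under 0.05), with Mcm3, a subunit of the replicative helicase, from 50.7 ± 1.11 to 35.7 ± 3.65 FPKM (SD, n = 3, limma adjusted p = 0.00398). In siDDX1 5 fell and 0 rose (10 and 0 unadjusted), with Cdc6, which loads that helicase, from 11.1 ± 0.812 to 6.19 ± 0.918 FPKM (SD, n = 3, limma adjusted p = 0.00751). Of the G2 and M phase genes 12 fell in siEXOSC3 and 2 in siDDX1 (14 and 5 unadjusted), and 0 rose in either, adjusted or not. The falls were 47.4% and 26.3% of the S phase genes and 80% and 13.3% of the G2 and M phase genes in siEXOSC3 and siDDX1, beside 15.7% and 5.03% of all genes tested. At an unadjusted limma p under 0.05, 2626 of all 11242 genes tested fell in siEXOSC3 and 1667 of 11104 in siDDX1. With 1 library left out, the S phase falls ran from 3 to 17 in siEXOSC3 and from 1 to 11 in siDDX1. The 2 G2 and M phase falls in siDDX1 became 0 without siDDX1 replicate 2 or scramble replicate 1 or 3, and 4 without siDDX1 replicate 3. Aurka, a mitotic kinase gene, went from 49.4 ± 2.17 to 26.4 ± 4.98 FPKM (SD, n = 3, limma adjusted p = 0.00242) in siEXOSC3.

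A further 33 DNA repair genes, listed by name and not all of the same pathways (Parp1, Lig3 and Xrcc1 among them), were tested beside the 38. Of them 11 fell (33.3%, beside 15.7% of all genes tested) and 1 rose in siEXOSC3, and 4 fell (12.1%, beside 5.03%) and 1 rose in siDDX1, with median log2 fold changes of -0.22 and -0.18. The falls ran from 2 to 18 in siEXOSC3 with 1 library left out, and in siDDX1 they were 0 or 1 without any library but siDDX1 replicate 3 and 17 without that one. Top3a, the topoisomerase gene that acts with Blm, went from 12.9 ± 0.438 to 9.15 ± 0.285 FPKM in siEXOSC3 (SD, n = 3, limma adjusted p = 0.00325). Xrcc1 went from 28.8 ± 1.41 to 22.4 ± 1.23 FPKM there (SD, n = 3, limma adjusted p = 0.00942), and Slx4, encoding a nuclease scaffold, from 6.63 ± 0.208 to 4.92 ± 0.465 FPKM (SD, n = 3, limma adjusted p = 0.0147). In siDDX1 Rpa2 fell from 31.5 ± 2.22 to 24.6 ± 1.20 FPKM (SD, n = 3, limma adjusted p = 0.0229) while Rpa3 rose from 259 ± 21.4 to 330 ± 17.3 FPKM (SD, n = 3, limma adjusted p = 0.033). These encode subunits of the same single-stranded DNA binding protein. With 1 library left out the Rpa2 call held in 2 of 6 fits and the Rpa3 call in 1 of 6, with limma adjusted p up to 0.105 and 0.118, and the Slx4 call in 3 of 6, up to 0.0652.

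Of 20 p53 target genes, which respond to ATM and CHEK2 signalling, 14 were expressed enough to be tested. In siEXOSC3 4 rose (28.6%, beside 16.7% of all genes tested) and 1 fell, and in siDDX1 3 rose (21.4%, beside 5.61%) and 1 fell. Of the 3 that rose in siDDX1, 1 was left without any library but siDDX1 replicate 3. Btg2, an antiproliferative gene, went from 6.59 ± 0.356 to 15.8 ± 2.61 FPKM in siEXOSC3 (SD, n = 3, limma adjusted p = 0.000893) and from 6.53 ± 0.343 to 11.7 ± 1.33 FPKM in siDDX1 (SD, n = 3, limma adjusted p = 0.00632). Cdkn1a, encoding the cyclin-dependent kinase inhibitor p21, went from 43.5 ± 1.65 to 73.8 ± 8.33 FPKM in siEXOSC3 (SD, n = 3, limma adjusted p = 0.00136). The 1 gene that fell in siEXOSC3 was Mdm2, encoding the ubiquitin ligase of p53, at 53.1 ± 0.682 and 46.1 ± 2.35 FPKM (SD, n = 3, limma adjusted p = 0.0402), a call that held in 1 of 6 fits with 1 library left out. The 1 that fell in siDDX1 was Ccng1, a cyclin gene, at 21.4 ± 1.69 and 15.8 ± 1.81 FPKM (SD, n = 3, limma adjusted p = 0.0295), held in 2 of 6 such fits. The list's median log2 fold change stayed near scramble, at 0.04 in siEXOSC3 and -0.01 in siDDX1. Of the neuroblastoma markers 7 of 9 rose in siEXOSC3 (77.8%, beside 16.7% of all genes tested). Their summed level was 630 to 651 FPKM where scramble held 399 to 450 FPKM. In siDDX1 1 of 9 rose (Ret, 11.1% beside 5.61%), while 6 of 9 had a negative log2 fold change, with a median of -0.15. The summed level there was 401 to 438 FPKM against 396 to 444 FPKM. The part of these markers in the repair gene values was not tested.

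**Figure D5:**
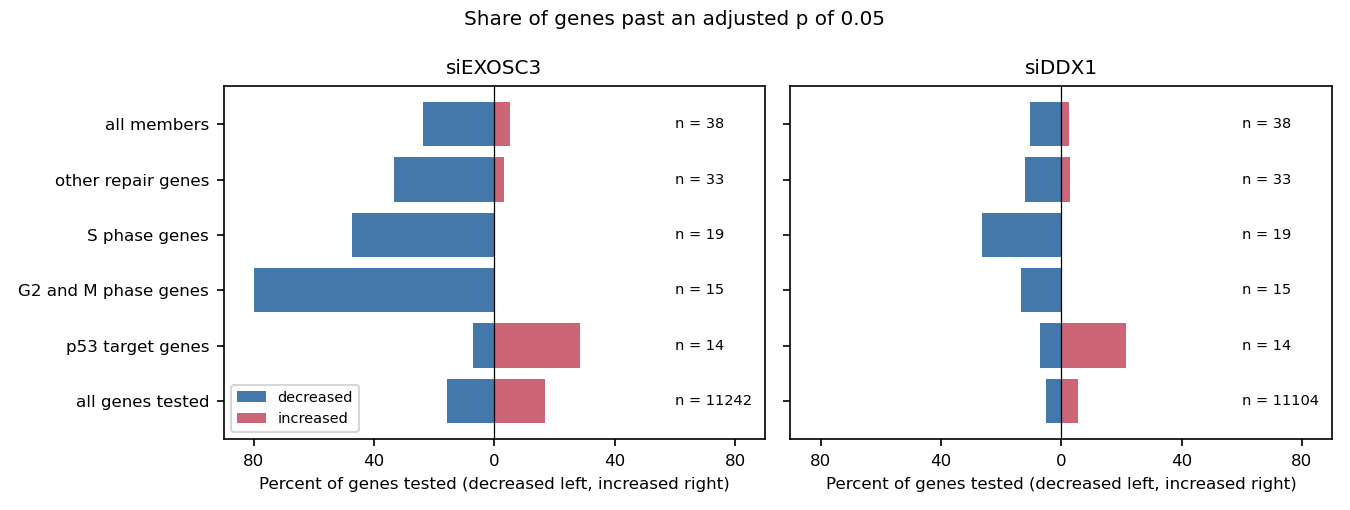
Percent of the genes tested in each list that were decreased (bars to the left of 0) or increased (bars to the right) at an adjusted p under 0.05, with the number of genes tested (n). The 38 repair genes show 23.7% decreased and 5.26% increased in siEXOSC3 and 10.5% and 2.63% in siDDX1, next to 15.7%, 16.7%, 5.03% and 5.61% over all genes tested.

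The repair genes are long. The 38 genes tested have a median annotated length of 51264 bases, where all genes tested with a position have 22732 bases (siEXOSC3 comparison) and 22934 bases (siDDX1 comparison). Across the 38 genes, which are not independent replicates and share their libraries, Spearman's rho of log2 fold change with length was 0.149 in siEXOSC3 and 0.196 in siDDX1. Over all genes it was 0.0148 and -0.0373.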

How the data were processed

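Total RNA of 9 N2A samples was depleted of ribosomal RNA and sequenced as paired, nondirectional libraries. Reads were mapped to mm9 by the authors (TopHat2 version 2.1.0), who deposited FPKM per gene and library, made with Cuffdiff version 2.2.1, in 2 separately scaled tables. The submitters' processing notes also name SAMtools, and the annotation given to Cuffdiff is not given in the sources used here. The scramble values differ between the tables by a factor of 1.0078 to 1.0119.

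From the deposited FPKM, log2(FPKM + 1) was fitted by limma 3.58.1 under R 4.3.3 (intensity trend, genes with a mean of at least 1 FPKM, two-sided, Benjamini-Hochberg over all genes tested, threshold 0.05). An exact permutation test of 3 against 3 cannot go below p = 0.1. The fit was also run on simulated data with independent noise for each gene and library. Such data do not cover a shift shared by many genes of 1 library. Other settings tried were no filter, a pseudocount of 0.1, centring on the median, no trend, the replicate number as a block, and leaving out each library. Positions came from GENCODE on NCBIM37 and promoters from RefSeq. Plots used matplotlib 3.10.9.

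The 39 members, the lists and the tests were chosen with earlier results of these data known. Every member is named, values per library are given for members past the threshold and for Brca1, Brca2, Palb2, Atm, Atr, Trp53bp1, Prkdc and Fancd2, and at most 3 genes past the threshold with the smallest adjusted p are named from each other list and knockdown. Mdm2 is named, and Mre11a and Rad52 are described in more detail, chosen after their values were seen. Some items of the marker and pathway lists are not reported here.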

Additional observations from a re-analysis of the deposited data

Results flagged for a closer look

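Mre11a and Prkdc lay on opposite sides of scramble in the knockdowns, with all 3 libraries of a knockdown on 1 side in each case. Mre11a had a log2 fold change of -0.19 in siEXOSC3, wholly below scramble, and of 0.0384 in siDDX1, wholly above it. Prkdc had a log2 fold change of 0.0600 in siEXOSC3, wholly above scramble, and of -0.26 in siDDX1, wholly below it. None of these values passed the threshold, and the differences between the knockdowns were not tested. Among all genes tested, 17 to 25.9% lay wholly on a given side in a given comparison. How many of them lay on opposite sides in the knockdowns was not counted. The values above scramble were smaller than their standard errors (0.0598 for Mre11a in siDDX1 and 0.0703 for Prkdc in siEXOSC3).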

How the results depend on the processing

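No value past the threshold in the reported or the alternative fit changed its sign, while some members near a log2 fold change of 0 (Fance, Fancg and Brca2 in siEXOSC3, among others) did so without passing. Of the member values, 389 of those with 1 library left out kept their side of the threshold, 47 lost it and 20 gained it, and under the other alternatives 365 kept it, 9 lost it and 6 gained it. Without a filter on low FPKM, the counts fell in siEXOSC3 to 0 increased and 5 decreased further repair genes and 4 decreased S phase genes. In siDDX1 they fell to 2 decreased members, 0 increased and 1 decreased further repair gene, 1 increased and 0 decreased p53 targets, and 387 increased and 330 decreased genes among all tested. Without the intensity trend, 1 member was increased and 0 p53 targets decreased in siEXOSC3, and 1 further repair gene was decreased and 1 p53 target increased in siDDX1. Centring on the median left 0 decreased p53 targets in siEXOSC3.

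With the replicate number as a block, siEXOSC3 held 1 increased and 6 decreased members, 0 increased and 6 decreased further repair genes, 3 decreased S phase genes, 0 decreased p53 targets and 1059 decreased genes among all tested. Fancm, Chek2, Rif1 and Xrcc6 no longer passed there (limma adjusted p between 0.0523 and 0.0935). In siDDX1 the block gave 2 increased and 8 decreased members and 1085 increased genes among all tested, with Fanca, Fancm, Rad54l, Atr and Chek1 added. Libraries with the same number deviated together in siDDX1 for replicates 2 and 3 but not for replicate 1, and in siEXOSC3 for none (Pearson r over genes 0.03, -0.31 and -0.13 in siEXOSC3, and -0.01, 0.38 and 0.37 in siDDX1). The labels tie the numbers to no shared plate or day, and the pairing was therefore not used.

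Leaving out 1 library gave these ranges in siEXOSC3: 1 to 3 increased and 4 to 15 decreased members, 1027 to 2379 increased and 583 to 2508 decreased genes, 0 to 1 increased and 2 to 18 decreased further repair genes, 0 increased and 3 to 17 decreased S phase genes, 0 increased and 8 to 14 decreased G2 and M phase genes, and 4 increased and 0 to 4 decreased p53 targets. The median log2 fold change of the members lay between -0.21 and -0.12 and that of Exosc3 between -2.60 and -2.45. In siDDX1 the ranges were 0 to 1 increased and 0 to 17 decreased members, 95 to 1818 increased and 58 to 1706 decreased genes, 0 to 2 increased and 0 to 17 decreased further repair genes, 0 increased and 1 to 11 decreased S phase genes, 0 increased and 0 to 4 decreased G2 and M phase genes, and 1 to 4 increased and 0 to 2 decreased p53 targets. The members' median lay between -0.17 and -0.0617 and that of Ddx1 between -2.10 and -1.95. The cause of these shifts was not tested. Absolute depth is unknown, and 3 libraries a group limit what small differences can show.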

Other observations

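Several repair genes start next to a protein-coding gene that is transcribed away from them. With a neighbouring start on the opposite strand within 1000 bases (a definition chosen after the data had been seen), 11 of the 39 genes had such a partner, or 28.2%. Among members past the threshold it was 6 of 11 in siEXOSC3 (Fancb, Brca1, Rad51c, Atm, Chek2 and Lig4) and 4 of 5 in siDDX1, where protein-coding genes tested held 13.6% and 13.7%. The share among all genes past the threshold was not computed. Every member past it in siDDX1 was also past it in siEXOSC3, so the second count is not a separate instance. Npat, a histone gene coactivator that starts 307 bases from Atm, had a log2 fold change of -0.40 in siEXOSC3 (limma adjusted p = 0.00669) and of -0.32 in siDDX1 (limma adjusted p = 0.0568). Abhd13, which starts 21 bases from Lig4, fell in each (log2 fold change -0.27, limma adjusted p = 0.0285, and -0.29, limma adjusted p = 0.0488). Nbr1, an autophagy receptor gene 194 bases from Brca1, did not pass (log2 fold change 0.07 and 0.01, limma adjusted p = 0.708 and 0.961), nor did Mospd2 beside Fancb (log2 fold change -0.18 in each, limma adjusted p = 0.238 and 0.356). Hscb, which starts 240 bases from Chek2, did not pass either (log2 fold change 0.21 and 0.33, limma adjusted p = 0.121 and 0.0933). For Tex14, which starts 111 bases from Rad51c, no value is given.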
